A study of Saccharomyces cerevisiae with 34 samples.

Results

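The 26S proteasome genes of budding yeast and their regulator RPN4 were followed across mRNA sequencing and ribosome profiling of cells under endoplasmic reticulum (ER) stress. The set was taken by standard gene name from the deposited tables and holds 36 of the 6679 genes listed there. It comprises the 7 alpha and 7 beta subunits of the 20S core, 10 subunits of the 19S base, 9 of the 19S lid, the assembly factor UMP1, the activator BLM10 and RPN4, and all 36 passed the filter on low values. The rule uses names and no measured value, though the members were chosen with earlier results of these data known.

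The study asked what the transcription factor Hac1 contributes to gene expression under ER stress, and all cells were SK1 strain Saccharomyces cerevisiae growing exponentially in rich medium. In the deletion experiment, a wild-type strain (WT) and a hac1 deleted strain were each left untreated, given 5 mM dithiothreitol (DTT, which blocks disulfide bond formation) or given 2 µg/mL tunicamycin (Tm, which blocks N-glycosylation), with 1 mRNA and 1 footprint library per condition. In the auxin experiment, cells with TIR, the auxin receptor that targets a degron-tagged protein for destruction, and cells without TIR were pre-treated with auxin (500 µM, together with 4 µM IP6) or with vehicle (DMSO and water). After that pre-treatment the auxin cultures were left unstressed or given 5 mM DTT, the vehicle cultures were all given 5 mM DTT, and libraries were labelled 1 h or 2 h. The labels do not describe the tag. No-TIR cells with auxin are called Hac1 retained here, and TIR cells with auxin Hac1 depleted. Each of these groups has a 1 h and a 2 h library, except unstressed no-TIR cells with auxin, which have the 1 h library only. Each strain's cultures were split into subcultures before treatment, and no label describes separate cultures for the 2 hours, so p-values measure the spread between these libraries, which may be partly technical.

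The proteasome degrades proteins that carry ubiquitin chains, among them misfolded ER proteins that have been pulled back into the cytosol. Its 20S core is a barrel of alpha and beta rings whose catalytic sites lie inside, and the 19S particle binds substrates, removes ubiquitin and unfolds the chain with a ring of ATPases. In yeast the transcription factor Rpn4 activates most proteasome genes and is itself a very short-lived proteasome substrate, so that its protein accumulates when degradation falls behind.

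An RPKM is a read count scaled by gene length and by a library total, so genes within 1 library can be compared, apart from the gene-length trends given below. TE (translation efficiency) is the footprint RPKM relative to the mRNA RPKM of the same sample. Reads in genes, estimated from the value steps, numbered 10.1 to 31.9 M per mRNA library and 6.37 to 35.99 M per footprint library of the auxin experiment (M, mega), and 15.8 to 18.8 M and 8.26 to 27.2 M in the deletion experiment. In each library the total implied by the value steps was smaller than these reads, as with 6.35 M against 21.2 M in the unstressed no-TIR mRNA library. Which reads the values were scaled by is therefore not known. HAC1 mRNA stood at 2372, 5216 and 4325 RPKM in untreated, DTT and Tm WT cells against 42.1, 5.43 and 17.7 RPKM in hac1 deleted cells. KAR2, the ER chaperone that Hac1 induces, had 2972 and 2711 footprint RPKM in Hac1-depleted DTT cells against 11739 to 14244 RPKM in the other 6 DTT libraries. Unstressed TIR cells had 827 and 924 RPKM, so KAR2 still rose with DTT under depletion. In hac1 deleted cells KAR2 footprints were 1006 RPKM untreated and 1256 RPKM with DTT. A pair of mRNA libraries stood apart most by gene length. Against their vehicle partner, the 1 h library of TIR cells with auxin and DTT showed log2 differences that correlated with log2 length at r = 0.42 over 5537 genes, and the 2 h library of no-TIR cells with auxin and DTT at r = 0.38. The members' median differences in these libraries were -0.39 and -0.16 (log2). In the matching footprint libraries r was 0.017 in both cases. A weaker trend of opposite sign was seen in the 1 h mRNA library of no-TIR cells with auxin and DTT. Its r was -0.23 over all genes and -0.58 over the 36 members.

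Footprint levels of the core subunits lay closer together than their mRNA levels, to a degree that varied between samples. Whether genes outside the proteasome show a like difference between the molecules was not examined. In untreated WT cells, where the footprint ratio was the lowest of the 17 samples, the 14 core subunits spanned 493 (PUP1) to 1956 (PUP3) RPKM in mRNA, a ratio of 3.97, but 593 (PRE2) to 826 (PRE6) RPKM in footprints, a ratio of 1.39. PUP1 and PUP3, both beta subunits, had 493 and 1956 mRNA RPKM but 696 and 775 footprint RPKM in that sample. In all 17 samples with both molecules, the standard deviation of log2 RPKM over the core subunits was lower in footprints (0.15 to 0.39) than in mRNA (0.34 to 0.65). At the other end, the 1 h sample of TIR cells with auxin and DTT, whose mRNA library stood apart by gene length, had a highest-to-lowest ratio of 2.19 in mRNA and 2.30 in footprints, and both standard deviations were 0.34. Over all samples the footprint ratio of the core ran from 1.39 to 2.61 and the mRNA ratio from 2.19 to 4.45. A lower standard deviation in footprints was found in 17 of 17 samples for the beta ring, in 13 for the alpha ring, in 16 for the base and in 10 for the lid. The footprint ratio ran from 2.28 to 3.63 in the base and from 2.21 to 3.77 in the lid. The 3.63 came from untreated hac1 deleted cells, with RPN1 of chromosome VIII as the lowest member, whose genes had a median of -0.80 against WT in footprints of this strain.

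**Figure D1:**
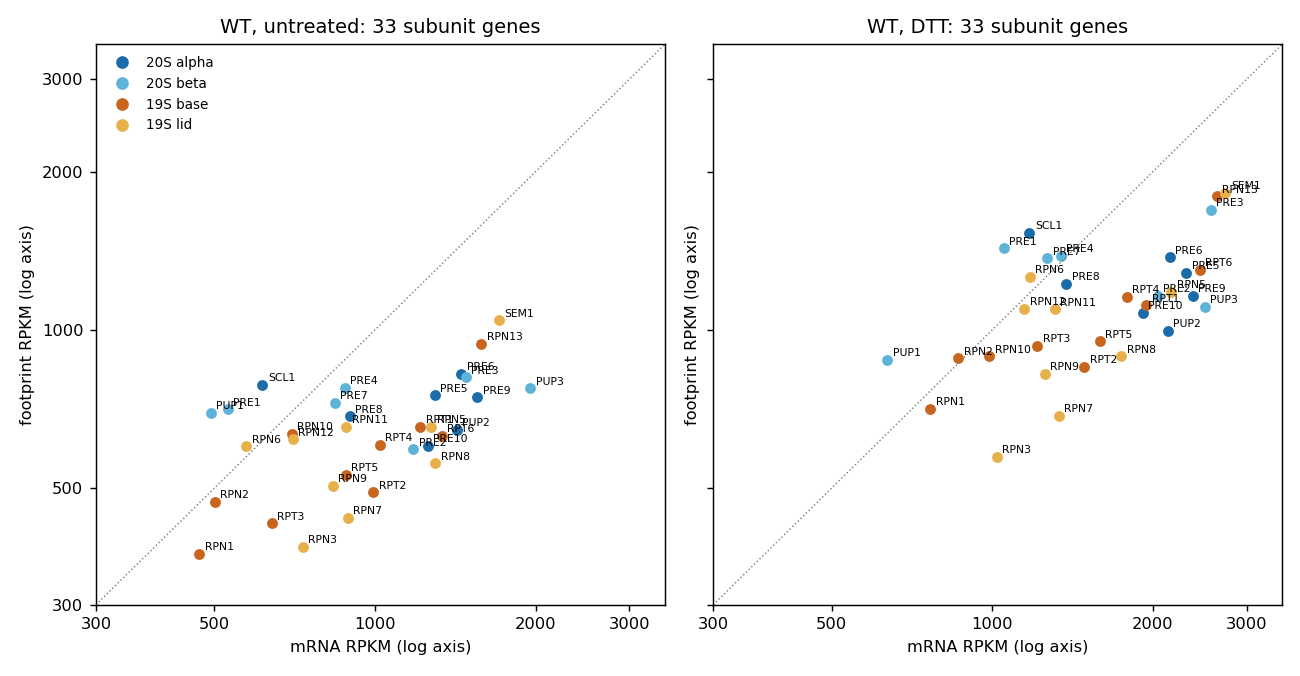
Footprint RPKM against mRNA RPKM (both log axes) of the 33 subunits in untreated WT cells and in WT cells with DTT, 1 library of each molecule per condition, coloured by the subunit's place in the complex. Core subunits spread more along the mRNA axis (493 to 1956 RPKM untreated, 636 to 2568 RPKM with DTT) than along the footprint axis (593 to 826 RPKM untreated, 878 to 1691 RPKM with DTT).

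Across the 33 subunits, Pearson's r between log2 mRNA and log2 footprint RPKM was 0.35 to 0.72 in the 17 samples, and r between log2 mRNA and log2 TE was -0.25 to -0.82. TE contains the mRNA value, so the latter is negative in part by construction, and the subunits share a library and differ in length. PUP1, the trypsin-like catalytic subunit, had the highest mean log2 TE of the subunits in both experiments, 0.64 over 11 auxin samples and 0.52 over 6 deletion samples. The lowest means were -1.28 for PRE9, an alpha subunit, in the auxin experiment and -1.20 for RPN8, a lid subunit, in the deletion experiment. PUP3 stood near the bottom in both, at -1.15 and -1.19.

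To ask how proteasome genes responded to DTT in cells that keep Hac1, no-TIR cells with auxin and DTT were compared with no-TIR cells with auxin alone. Footprints of 35 of 36 members rose, none fell, and the median change was 0.71 (log2), against 0.34 for all 5338 genes tested. A gene was called where limma's adjusted p over all genes was under 0.05, and 47.5% of all genes tested rose by that rule. The 36 genes made up 0.567% of length-weighted footprint RPKM without DTT and 1.01% and 1.12% with DTT at 1 h and 2 h. RPN4 footprints were 114 RPKM without DTT, 177 RPKM at 1 h and 272 RPKM at 2 h. Both DTT libraries lay above the control, and RPN4 rose by 0.69 ± 0.20 (log2, SE; limma adjusted p = 0.015). That call was lost after median-ratio scaling of the libraries (0.35, adjusted p = 0.172), without the filter on low values (0.69, adjusted p = 0.0585), without the hour term (0.93, adjusted p = 0.0729) and without the 2 h DTT library (0.62, adjusted p = 0.0531). UMP1, which helps core precursors to dimerise and is degraded by the finished core, went from 1006 to 2202 and 2328 footprint RPKM. That rise, 1.13 ± 0.11 (adjusted p = 0.000117), was the largest among the 36.

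**Figure D2:**
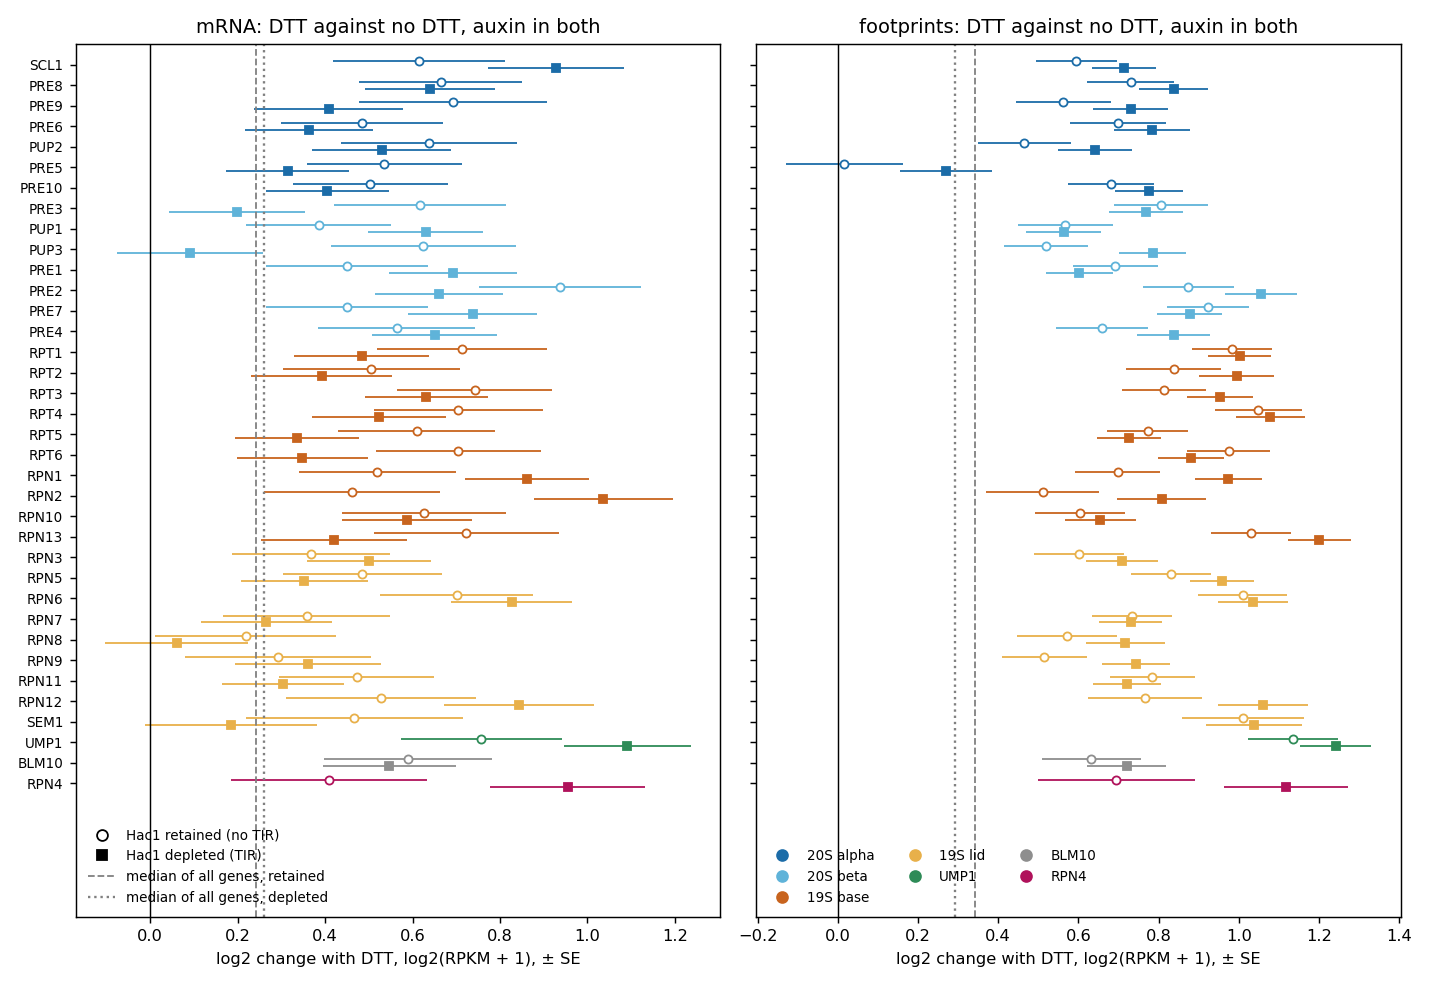
Log2 change with DTT of each member, in footprints and mRNA, with Hac1 retained and with Hac1 depleted. Bars are the SE either way from limma. In footprints, PRE5 alone failed the test in both comparisons, and RPN4 changed by 0.69 and 1.12 in footprints.

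In the core, 6 of 7 alpha and 7 of 7 beta subunits rose in footprints, with medians of 0.59 and 0.69. Of the catalytic beta subunits, PRE2 (chymotrypsin-like) rose by 0.87 ± 0.11, PRE3 (caspase-like) by 0.81 ± 0.12 and PUP1 by 0.57 ± 0.12. PRE2 footprints went from 616 RPKM to 1101 and 1277 RPKM, above the control in both. The largest beta change was that of PRE7 (0.92 ± 0.10) and the smallest that of PUP3 (0.52 ± 0.11), while PRE8 led the alpha ring with 0.73 ± 0.11. The remaining beta subunits PRE1 and PRE4 rose by 0.69 and 0.66, and the alpha subunits SCL1, PRE6, PRE9, PRE10 and PUP2 by 0.47 (PUP2) to 0.70 (PRE6). The exception was PRE5, an alpha subunit, with 705 footprint RPKM without DTT and 652 and 755 RPKM with DTT. Its groups overlapped, and its change was 0.02 ± 0.15 (adjusted p = 0.936), while PRE5 mRNA rose from 1262 to 1934 and 1801 RPKM by 0.54 ± 0.18 (adjusted p = 0.0323). In the vehicle cultures with DTT, however, PRE5 footprints were 896 and 824 RPKM without TIR and 845 and 801 RPKM with TIR. These values lay above those of the unstressed libraries (705, 655 and 552 RPKM). In the deletion experiment PRE5 footprints stood at 751 RPKM untreated and at 1284 RPKM with DTT in WT cells.

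In the 19S particle, 10 of 10 base and 9 of 9 lid subunits rose in footprints, with medians of 0.83 and 0.77. Among base members, RPT4, an ATPase of the unfolding ring, changed most (1.05 ± 0.11), from 532 RPKM to 1116 and 1269 RPKM. RPN13, a ubiquitin receptor, followed at 1.03 ± 0.10, and RPN2, the scaffold that holds it, changed least (0.51 ± 0.14). The other ATPases RPT1, RPT2, RPT3, RPT5 and RPT6 rose by 0.77 (RPT5) to 0.98 (RPT1), and RPN1 and RPN10, which bind ubiquitin or ubiquitin-like domains, by 0.70 and 0.60. In the lid, RPN6, a scaffold that clamps base to core, and SEM1, a small protein shared with other complexes, both rose by 1.01, with SEs of 0.11 and 0.15. RPN9, a structural lid subunit, rose least, by 0.51 ± 0.11, and RPN11, the deubiquitinase, by 0.78 ± 0.11. The other lid subunits RPN3, RPN5, RPN7, RPN8 and RPN12 rose by 0.57 (RPN8) to 0.83 (RPN5). BLM10, which caps the core in place of the 19S particle, rose by 0.63 ± 0.12 (adjusted p = 0.00285).

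At the mRNA level 21 of 36 members rose and none fell, against 28.6% of all genes, with a median of 0.55 against 0.24 for all 5757 genes. The calls took in 6 of 7 alpha, 4 of 7 beta and 8 of 10 base subunits, but 1 of 9 lid subunits, RPN6 (0.70 ± 0.17). PRE2 mRNA rose most (0.94 ± 0.19, adjusted p = 0.00227), UMP1 mRNA rose by 0.76 ± 0.18 and BLM10 mRNA by 0.59 ± 0.19. RPN4 mRNA was 227 RPKM without DTT and 281 and 376 RPKM with it, a change of 0.41 ± 0.23 that did not pass the test (adjusted p = 0.166). No member's TE rose by the test (limma, 3 members at an unadjusted p under 0.05), where 1.91% of all genes did, and the members' median was 0.22 against 0.10. These calls depend on a single control library and on the scaling. With each library scaled by its median ratio, which moves the median of all genes to 0.01 in footprints and -0.01 in mRNA, 21 members rose in footprints (26.5% of all genes) and 1 in mRNA (16.2%), with members' medians of 0.37 and 0.30. Without the 1 h library of no-TIR cells with auxin and DTT, 6 members rose in mRNA.

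The same comparison in Hac1-depleted cells, TIR cells with auxin and DTT against TIR cells with auxin alone, asked how members responded under depletion. KAR2 still rose with DTT in these cells, as given above, and how much Hac1 was left was not tested. There, too, 35 of 36 members rose in footprints and none fell, against 49.6% of all genes, with a median of 0.80 against 0.29. Length-weighted footprint shares of the 36 genes were 0.564% and 0.587% without DTT and 1.03% and 1.15% with it. RPN4 footprints were 121 and 124 RPKM without DTT and 223 and 317 RPKM with it. The groups did not overlap, and RPN4 rose by 1.12 ± 0.15 (limma adjusted p = 0.000355). UMP1 rose by 1.24 ± 0.09 (adjusted p = 1.5e-05), from 950.0 and 956 RPKM to 2089 and 2436 RPKM, and was again the largest.

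By role, footprints rose for 6 of 7 alpha, 7 of 7 beta, 10 of 10 base and 9 of 9 lid subunits. PRE2 led the beta ring at 1.06 ± 0.09 and PUP1 was lowest at 0.56 ± 0.09, with PRE3 at 0.77 ± 0.09. RPN13 led the base at 1.20 ± 0.08 and RPN10, another ubiquitin receptor, was lowest at 0.65 ± 0.09. RPN12, a lid subunit that joins last, led the lid at 1.06 ± 0.11, and RPN3 was lowest at 0.71 ± 0.09. PRE8 led the alpha ring at 0.84 ± 0.09 and PRE5 was again the member that missed the threshold, with 655 and 552 RPKM without DTT and 719 and 729.8 RPKM with it (0.27 ± 0.12, adjusted p = 0.0671). BLM10 rose by 0.72 ± 0.10 (adjusted p = 0.000337).

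In mRNA, 22 of 36 members rose with Hac1 depleted, against 41.1% of all genes, with a median of 0.51 against 0.26. They were 4 of 7 alpha, 5 of 7 beta, 7 of 10 base and 3 of 9 lid subunits with UMP1 (1.09 ± 0.15), BLM10 (0.55 ± 0.15) and RPN4. RPN4 mRNA was 236 and 189 RPKM without DTT and 383 and 438 RPKM with it, with no overlap, and rose by 0.95 ± 0.18 (adjusted p = 0.00085). The TE of 12 members rose, against 12.5% of all genes, led by SEM1 (0.85 ± 0.19) and RPN13 (0.78 ± 0.16, adjusted p = 0.00668). No TE call was made without the 1 h DTT library of TIR cells, whose mRNA stood apart by gene length (limma, 6 members at an unadjusted p under 0.05), 3 were made without the 1 h and 1 without the 2 h unstressed TIR library. In mRNA 14 members rose without the 2 h unstressed TIR library and 29 without the 1 h DTT library. After median-ratio scaling, 34 members rose in footprints (31.3% of all genes) and 14 in mRNA (26.6%).

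Set across the whole auxin experiment, all 8 DTT footprint libraries lay above all 3 unstressed ones for 35 of 36 members, where that held for 49% of all genes. PRE5 was the exception, with 652 RPKM in the 1 h DTT library of Hac1-retained cells against 705 RPKM in unstressed no-TIR cells. In mRNA it held for 29 of 36 members, against 40% of all genes, and not for PRE9, PRE3, PUP3, RPN5, RPN7, RPN8 and SEM1. The 36 genes made up 0.564% to 0.587% of length-weighted footprint RPKM in unstressed libraries and 1.00% to 1.19% in DTT libraries, and 0.894% to 0.963% against 1.23% to 1.71% in mRNA. RPKM are relative within a library, and in these bulk samples fewer cells with a transcript cannot be told apart from less RNA per cell.

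**Figure D3:**
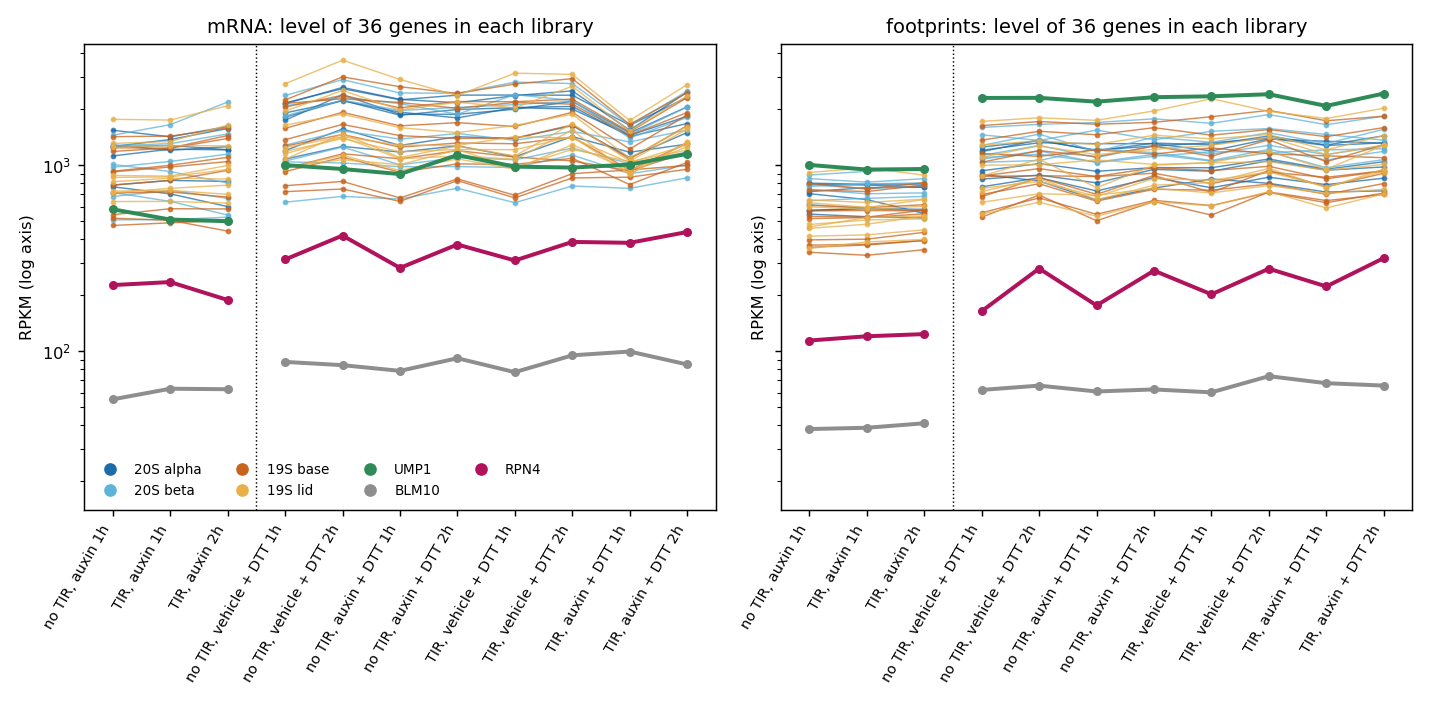
RPKM of the 36 members (log axis) in each library of the auxin experiment, for mRNA and footprints, each point 1 gene, coloured by role. All DTT libraries sit above the unstressed ones for 35 of 36 members in footprints and 29 of 36 in mRNA. RPN4 lies near the bottom at 114 to 317 footprint RPKM and BLM10 below it.

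Under DTT, the direct comparison of Hac1-depleted with Hac1-retained cells called no member in footprints, mRNA or TE. By limma, 2, 3 and 4 members had an unadjusted p under 0.05, and 9.61%, 6.08% and 0.244% of all genes were called in either direction. In footprints the members' differences ran from -0.09 to 0.34 with a median of 0.05. The 95% intervals of 34 of 36 members lay within 1.5-fold either way in footprints, and those of 28 of 36 in mRNA, where the median was -0.11. UMP1 differed by -0.01 in footprints, with an interval of -0.21 to 0.20. RPN4 footprints were 177 and 272 RPKM with Hac1 retained and 223 and 317 RPKM with Hac1 depleted. The groups overlapped, but at each hour the depleted library was the higher one. The difference was 0.28 ± 0.15 (adjusted p = 0.321), and its interval of -0.08 to 0.64 includes differences past 1.5-fold. RPN4 mRNA was 281 and 376 RPKM with Hac1 retained and 383 and 438 RPKM with Hac1 depleted, without overlap, a difference of 0.33 ± 0.18 (adjusted p = 0.277). The mRNA and TE values here, and in the difference of the DTT responses below, include the mRNA libraries with gene-length trends. At 1 h these trends had opposite signs, r = 0.42 with Hac1 depleted and -0.23 with Hac1 retained, and r was 0.38 in the retained 2 h library. Their part in the mRNA differences was not tested. RPN12 had the widest difference in footprints, 0.34 ± 0.11 (adjusted p = 0.105), and RPN9 followed at 0.25 ± 0.08 (adjusted p = 0.106). RPN12 and RPN9 both passed when either unstressed TIR library was left out.

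The difference between the DTT responses, which sets each strain's DTT cells against its own unstressed cells, was called for no member. By limma 0 members in footprints, 1 in mRNA and 1 in TE had an unadjusted p under 0.05, and 2.49%, 1.06% and 0.225% of all genes were called. RPN4 footprints responded by 0.42 ± 0.25 more in depleted cells (adjusted p = 0.42, interval -0.15 to 1.00). Without the 1 h unstressed TIR library that value was 0.75 (adjusted p = 0.0219) and passed. The unstressed no-TIR group has a 1 h library only, so the RPN4 difference in footprints rests in part on the hour term. RPN4 footprints changed from 1 h to 2 h by 0.04 in unstressed TIR cells. In DTT cells that change was 0.62 with Hac1 retained and 0.50 with Hac1 depleted. Leaving out the hour term raised the retained RPN4 response, as given above, which narrows the difference. KAR2 responded less in depleted cells, by -1.73 in mRNA (adjusted p = 0.00128) and -2.03 in footprints (adjusted p = 0.00199).

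**Figure D4:**
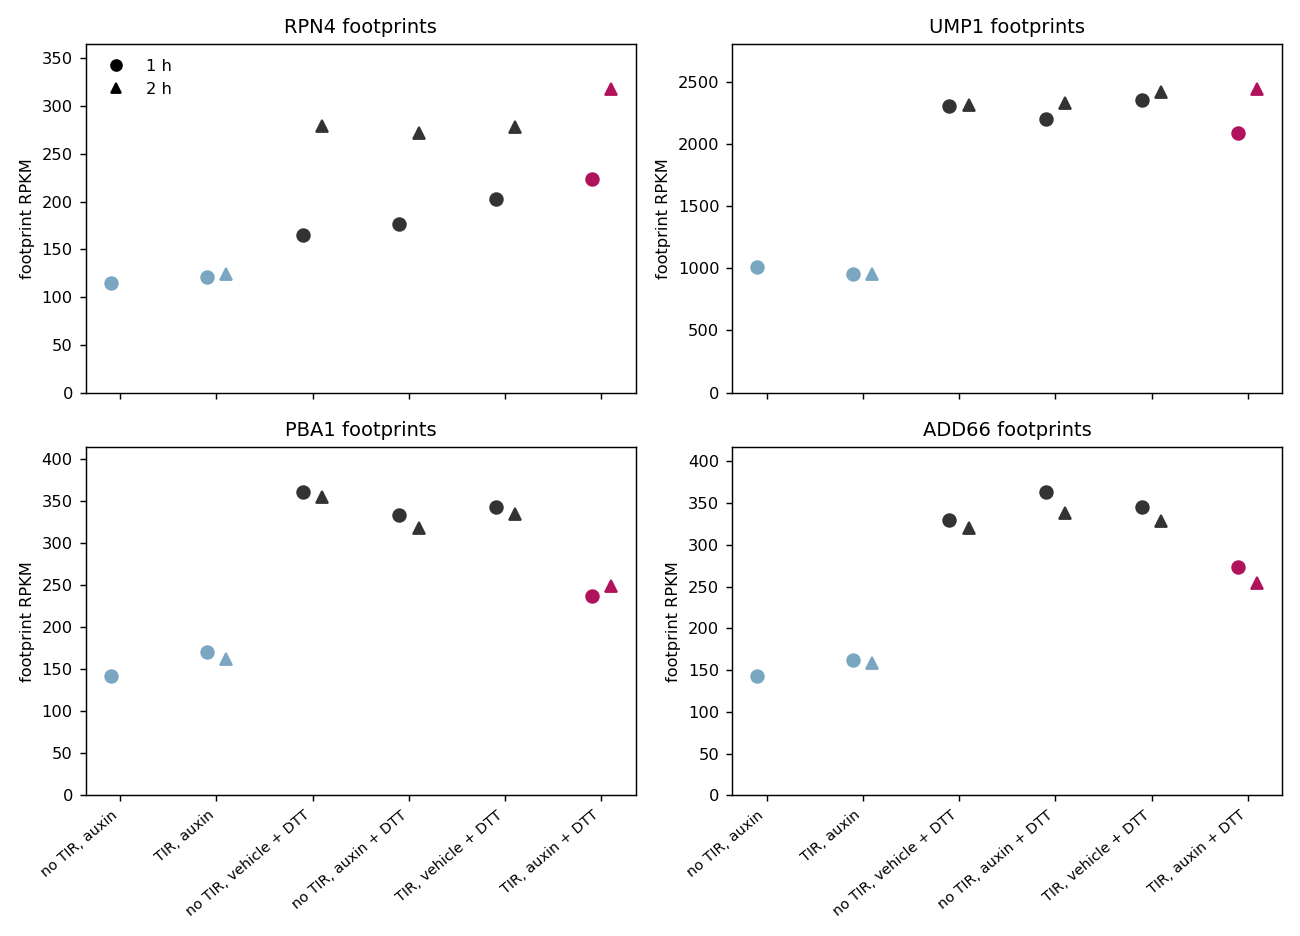
Footprint RPKM (linear axes from 0) of RPN4, UMP1 and the assembly chaperone genes PBA1 and ADD66 in the 11 libraries of the auxin experiment, grouped by strain and treatment, with 1 h and 2 h marked. RPN4 and UMP1 are higher in each DTT library than in the 3 unstressed ones, while PBA1 and ADD66 are lower in the 2 Hac1-depleted DTT libraries (236 to 273 RPKM) than in the other 6.

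Genes that build or serve the proteasome did not all keep to this pattern. Of 17 assembly and associated factors, 13 rose and none fell in footprints with Hac1 retained, where 47.5% of all genes rose and 14.6% fell, and 15 rose with Hac1 depleted, as did 49.6% of all genes. The nucleolar factor CIC1 fell there (-0.73 ± 0.16), as did 19.8% of all genes. Under DTT, 3 of the 17 were lower and none higher with Hac1 depleted than with Hac1 retained, against 5.79% and 3.82% of all genes. PBA1 and ADD66, which encode the chaperone pair that seeds the alpha ring, were 2 of them. PBA1 footprints were 142 RPKM in unstressed no-TIR cells, 171 and 163 RPKM in unstressed TIR cells, 333 and 318 RPKM in DTT cells with Hac1 retained and 236 and 249 RPKM with Hac1 depleted. Depleted and retained DTT libraries did not overlap, and the difference was -0.42 ± 0.08 (limma adjusted p = 0.0163). PBA1 rose with DTT by 1.20 with Hac1 retained and by 0.54 with Hac1 depleted, and these responses differed by -0.66 ± 0.13 (adjusted p = 0.0432). ADD66 had 363 and 339 RPKM with Hac1 retained against 273 and 255 RPKM with Hac1 depleted, a difference of -0.41 ± 0.08 (adjusted p = 0.0156), with responses of 1.32 and 0.72 (adjusted p of their difference = 0.0509). The remaining one, SPG5, needed for proteasome assembly in starved cells, differed by -0.63 ± 0.15 (adjusted p = 0.0397). SPG5 and ADD66 were lower in mRNA too, by -0.87 and -0.62, values that include the mRNA libraries that stood apart by gene length. SPG5 mRNA was 1094 RPKM with Hac1 retained and 493 RPKM with Hac1 depleted at 1 h, and 1266 and 837 RPKM at 2 h. For ADD66 these were 649 and 373 RPKM at 1 h and 554 and 411 RPKM at 2 h.

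In the ubiquitin system, 23 of 31 genes rose and 3 fell in footprints with Hac1 retained, against 47.5% and 14.6% of all genes. With Hac1 depleted 26 rose and 3 fell, against 49.6% and 19.8% of all genes. UBI4, the stress-induced polyubiquitin gene, rose most, by 2.99 ± 0.31 with Hac1 retained and by 3.47 with Hac1 depleted. Those that fell were RPL40A, RPL40B and RPS31, which encode ubiquitin fused to a ribosomal protein, by -0.69, -0.71 and -0.91 with Hac1 retained. RPL40A and RPL40B are near-identical copies, so reads may be split between them. Under DTT, UBC5, a ubiquitin-conjugating enzyme, was higher with Hac1 depleted (0.65 ± 0.12, adjusted p = 0.0155), as was OTU1, a deubiquitinase that acts with Cdc48 (0.57 ± 0.09, adjusted p = 0.008), and none was lower, where 3.82% of all genes were higher and 5.79% lower. Of 4 transcription factors reported to act on the RPN4 promoter, HSF1, the heat shock factor, was lower in footprints with Hac1 depleted (-0.47 ± 0.09, adjusted p = 0.0132) but differed by -0.07 in mRNA. YAP1, PDR1 and PDR3 differed by -0.06, 0.07 and 0.28 in footprints and were not called.

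The vehicle cultures gave the background of the auxin treatment. Auxin against vehicle under DTT called no member and 0% of all genes in footprints and mRNA without TIR, where by limma 1 and 0 members had an unadjusted p under 0.05. RPN4 differed there by 0.03 in footprints and -0.15 in mRNA, and turned to -0.14 in footprints without the 1 h vehicle library. With TIR, no member was called in footprints or mRNA (1 and 8 at an unadjusted p under 0.05), against 6.61% and 5.99% of all genes, and members' medians were -0.04 and -0.24. PRE3 mRNA was called there when either DTT library of no-TIR cells with auxin was left out. TIR cells and no-TIR cells with auxin and no DTT showed no called member in either molecule (limma, 0 and 0 at an unadjusted p under 0.05), and 0.0749% of all genes were called in footprints and 0% in mRNA. RPN4 there had 121 and 124 against 114 footprint RPKM, while its fitted difference, which includes the hour term, was -0.14. With 1 library left out that difference ran from -0.47 to 0.0753, so its sign is not settled.

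Libraries at 2 h were compared with those at 1 h by the hour term of the same model. Footprints of 8 members were higher at 2 h and none lower, against 14.5% of all genes. RPN4 rose most, by 0.48 ± 0.10 (limma adjusted p = 0.0227), and the others were the ATPases RPT2 and RPT4 and RPN1, RPN2, RPN3, RPN9 and RPN12 of the base and lid, by 0.20 to 0.29. No core subunit was among them. In mRNA RPN5, a lid subunit, was called (0.36 ± 0.09, adjusted p = 0.04), against 4.55% of all genes. RPN4 footprints went from 164 to 279 RPKM in no-TIR vehicle cells with DTT, from 177 to 272 with auxin and DTT, from 203 to 278 in TIR vehicle cells with DTT and from 223 to 317 with auxin and DTT. The unstressed TIR pair, by contrast, had 121 and 124 RPKM. Every DTT group was thus higher at 2 h, by 0.46 to 0.76 (log2), against 0.04 without DTT, although this difference between stressed and unstressed groups was not tested. Over the 8 DTT libraries alone, 16 members were higher in footprints (21.7% of all genes) and 4 in mRNA (RPN3, RPN4, RPN5 and RPN12; 9.95%), with RPN4 mRNA at 0.34 ± 0.09 (adjusted p = 0.0289). Without any 1 of the DTT libraries, no member was called in either molecule, and RPN4 footprints kept values of 0.40 to 0.48 with adjusted p of 0.0657 to 0.0909.

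In the deletion experiment, with 1 library per condition and so no test, WT cells with DTT gave the same direction. Past 1.5-fold higher were 24 of 36 members in mRNA (34% of all genes) and 30 of 36 in footprints (38%), and the medians were 0.65 and 0.83 against 0.30 and 0.35 for all genes. UMP1 changed most in footprints, from 819.8 to 2031 RPKM. The core subunit PRE3 went from 813 to 1691 RPKM, PRE2 from 593 to 1160.5 RPKM and PUP1 from 696 to 878 RPKM. RPN6 led the lid (1.07) and RPT3, an ATPase, the base (1.12), while BLM10 went from 58.0 to 86.9 RPKM. RPN4 was 114 RPKM untreated and 165 RPKM with DTT in footprints, and 214 and 299 RPKM in mRNA. After median-ratio scaling 4 members in mRNA (21.8% of all genes) and 8 in footprints (22.9%) passed 1.5-fold.

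With tunicamycin, too, WT cells had higher levels of most members. Past 1.5-fold higher were 10 members in mRNA (21.4% of all genes) and 12 in footprints (21.3%), with medians of 0.52 and 0.52 against 0.15 and 0.12. PRE1, a beta subunit, led in mRNA at 1.16 and RPT3 in footprints at 0.84, and UMP1 footprints stood at 1421 RPKM. RPN4 had 205 mRNA and 117 footprint RPKM, next to 214 and 114 untreated, so its level with Tm lay within 0.06 (log2) of the untreated one. BLM10 footprints were lower with Tm, at 51.7 RPKM. After median-ratio scaling 5 members in mRNA (15.6% of all genes) and 7 in footprints (16%) passed 1.5-fold. On that scale the members' medians were 0.34 in mRNA with DTT as with Tm, and 0.47 with DTT and 0.38 with Tm in footprints.

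In hac1 deleted cells, few members passed 1.5-fold under stress. With DTT, RPN4 and UMP1 passed 1.5-fold in both molecules and no other member did (21.1% of all genes in mRNA and 23.3% in footprints), and the medians were 0.30 and 0.33 against 0.16 and 0.18. With Tm, RPN4 footprints passed 1.5-fold alone (0.60; 2.78% of all genes) and no member did in mRNA (1.88%). After median-ratio scaling RPN4 alone passed with DTT in both molecules (16.5% and 17% of all genes), and with Tm no member passed in either (1.63% and 1.79%), RPN4 footprints being at 0.48. RPN4 mRNA stood at 375 RPKM in untreated, 654 RPKM in DTT and 475 RPKM in Tm cells, and its footprints were 183, 369 and 278 RPKM. Each of these values is above the WT value under the same treatment. UMP1 footprints came to 2568, 3968 and 2496 RPKM in the same order.

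Unstressed hac1 deleted cells already lay above unstressed WT cells for nearly all members. Past 1.5-fold higher were 34 of 36 members in mRNA (13.7% of all genes) and 32 of 36 in footprints (14.8%), with medians of 0.92 and 0.94 against 0.21 and 0.20. After median-ratio scaling these were 32 (7.4%) and 27 (8.52%). All 7 alpha, all 7 beta and all 9 lid subunits passed in both molecules, while RPN1 and RPN10 did not in either. PRE7 and UMP1 differed most in footprints, by 1.70 and 1.65. PUP1 went from 493 to 1076 mRNA RPKM and from 696 to 1663 footprint RPKM, PRE3 from 813 to 1767 and PRE2 from 593 to 1402 footprint RPKM. RPN4 differed by 0.81 in mRNA and 0.68 in footprints, and BLM10 by 0.72 and 0.51. Unstressed hac1 deleted cells also lay above DTT-treated WT cells for 31 of 36 members in mRNA, where that held for 45.4% of all genes, and for 26 of 36 in footprints (42.7%). The 36 genes took 0.601% of length-weighted footprint RPKM in untreated WT cells, 1.14% in WT cells with DTT, 1.15% in untreated hac1 deleted cells and 1.53% in hac1 deleted cells with DTT.

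The chromosome of a gene moved with this difference between the strains. Between unstressed hac1 deleted and WT cells, the genes of chromosome VIII had a median of -0.79 in mRNA and -0.80 in footprints and those of chromosome II 0.75 and 0.72, while the medians of the other 14 chromosomes lay between 0.17 and 0.28. RPN1 and RPN10, the base members near 0, are on chromosome VIII, at -0.05 and -0.09 in mRNA. PRE7 and UMP1, the members that differed most, are on chromosome II, at 1.46 and 1.52 in mRNA. Measured against the median of its own chromosome, each of the 36 members was higher in hac1 deleted cells in both molecules. Those values ran from 0.39 (RPN13) to 0.98 (PRE8) in mRNA, with 32 past 1.5-fold, where 4.97% of all genes were. In footprints they ran from 0.31 (BLM10) to 1.16 (PRE8), with 29 past 1.5-fold and 5.78% of all genes. RPN1 then stood at 0.74 and RPN10 at 0.70 in mRNA. In the auxin experiment, chromosome medians between unstressed TIR and no-TIR cells lay within -0.05 and 0.07. The part of the chromosome shift in the strain difference was not tested beyond these values.

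**Figure D5:**
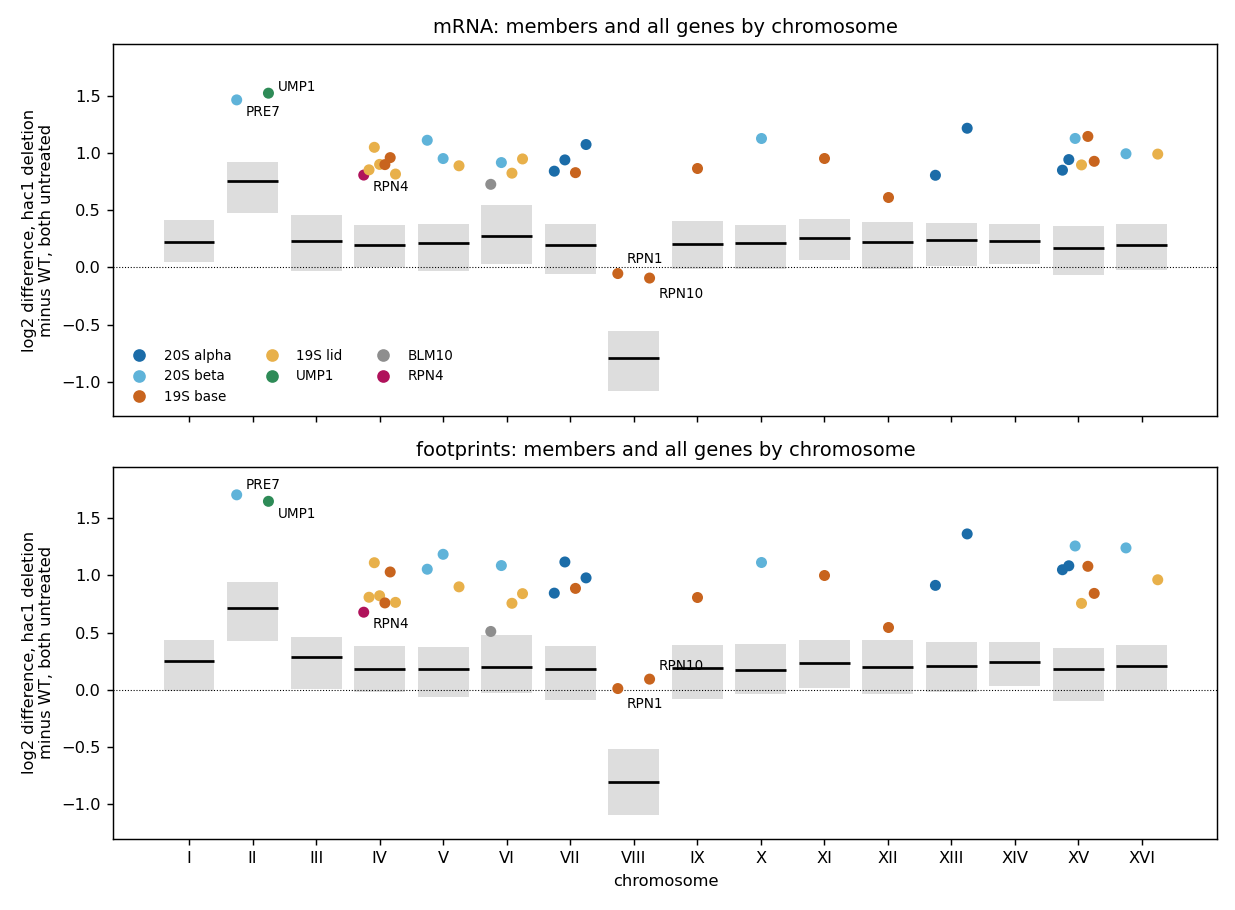
Log2 difference between unstressed hac1 deleted and WT cells for each member, placed by chromosome, with the median of all genes of each chromosome as a line, for mRNA and footprints (1 library per strain and molecule). Members on chromosome VIII (RPN1, RPN10) and chromosome II (PRE7, UMP1) lie near the ends of the range, and all 36 lie above their chromosome's median.

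No member's TE passed 1.5-fold in any of the 5 deletion comparisons, where the share of all genes past it upwards was 4.63% and 2.42% for DTT and Tm in WT cells, 2.84% and 1.89% in hac1 deleted cells and 2.21% for the unstressed strain difference. Medians of the members' TE differences lay between 0.01 and 0.12 (log2).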

How the data were processed

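The authors deposited 2 tables, with 1 RPKM value per gene and library for 34 libraries of matched mRNA and ribosome footprints. The first is named RPKM per the file headers and labels. The second carries no unit, and was taken as RPKM from its range, its gene set and its value steps. Per the submitters' processing notes, Bowtie2, CASAVA and bcl2fastq 2.17 were used. Genome build and strand setting were not given in the sources used here. One label field of the deletion experiment swaps mRNA and footprints, and titles and column names were followed. Of 6679 gene IDs, 5994 matched the RefSeq gene table.

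Auxin libraries were tested with limma 3.58.1 (R 4.3.3, mean-variance trend) on log2(RPKM + 1), for genes averaging 5 RPKM or more across the 11 mRNA or 11 footprint libraries, in 1 model per molecule with group and hour (4 residual degrees of freedom). P-values were adjusted by Benjamini-Hochberg over all genes tested. Fold changes on this scale understate those of low genes. TE was the footprint minus the mRNA log2 value of a sample. In simulated data with equal noise for all genes and no hour effect, the fit recovered known changes between depleted and retained DTT cells. Changes under 2-fold, other comparisons and gene-length trends were not simulated. Deletion libraries have no replicates and were described by log2 differences and a 1.5-fold limit. Chromosomes were read from systematic gene names. Python 3.11.15 with pandas 2.3.3 gave descriptions and figures.

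Depth was estimated from low values, which are whole multiples of 1 read (within 0.02) once gene length is shortened by 60 nt, for at least 79.7% of low values in each library. Depth bears on counting error only. The whole reads were not recovered closely enough for a count test.

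The 36 members and the gene lists were chosen with earlier results of these data known. Any member could be named. RPN4 was given throughout, UMP1, BLM10 and the catalytic PRE3, PUP1 and PRE2 where a comparison is described, and otherwise the largest and smallest change per role, with other genes only from the lists and HAC1 and KAR2. The lists were 18 assembly and associated factors (17 matched, not ADC17), 31 ubiquitin genes and 4 RPN4 promoter factors. PRE5, RPN9 and PBA1 with ADD66 and SPG5 were described because of their values. No promoter sequence was used, and a planned motif search was not analysed here.

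Hour differences of the 4 DTT groups correlated with each other (r = 0.25 to 0.77) but not with those of the unstressed TIR group (-0.09 to 0.19), so the hours do not pair all samples. Alternatives were a pseudocount of 5, no filter, median-ratio scaling, no hour term, a 2-fold limit, each library left out, and, chosen after seeing the data, the hour comparison over the DTT libraries alone.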

Additional observations from a re-analysis of the deposited data

Results flagged for a closer look

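The DTT response of PBA1 footprints differed between Hac1-depleted and Hac1-retained cells by -0.66 (log2; limma adjusted p = 0.0432, interaction of strain and treatment). The responses of KAR2 differed in the same test by -1.73 in mRNA and -2.03 in footprints.

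Further differences concern members whose single libraries moved in opposite directions in hac1 deleted and WT cells, and none of them was tested. The values below are the response of hac1 deleted cells minus that of WT cells (log2). With DTT, BLM10 mRNA differed by -0.56. With Tm, mRNA of the base members RPT1, RPT5, RPN1, RPN2 and RPN10 differed by -0.46, -0.59, -0.43, -0.41 and -0.27, BLM10 mRNA by -0.27 and RPN4 mRNA by 0.40. In footprints with Tm, PUP3 differed by -0.16, RPN10 by -0.50, UMP1 by -0.83 and BLM10 by 0.31. No group held the 4 libraries needed to test single libraries for standing apart.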

How the results depend on the processing

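A pseudocount of 5 changed no count of members by over 1.5 times, and neither did leaving out the hour term (no replicate block), which gave 34 (Hac1 retained) and 35 (depleted) footprint calls under DTT. The hours pair the DTT groups only. Median-ratio scaling gave 21 (footprints) and 1 (mRNA) rising members with Hac1 retained and 14 in mRNA with Hac1 depleted. It left 8 and 4 members past 1.5-fold in WT cells with DTT, 7 and 5 with Tm, 1 and 1 in hac1 deleted cells with DTT, and 0 in footprints with Tm. At 2-fold these were 6 and 1, 0 and 1, 1 and 0, and 0, and the unstressed strain difference counted 16 in footprints and 9 in mRNA. Without a filter, 0 members passed in TE with Hac1 depleted and 0 at 2 h in either molecule. Over DTT libraries alone, 16 and 4 passed at 2 h. With 1 library left out, counts ran from 33 to 35 (footprints), 6 to 25 (mRNA) and 0 to 1 (TE) with Hac1 retained and from 35 to 36, 14 to 29 and 0 to 15 with Hac1 depleted. They ran from 0 to 2 for depleted against retained footprints, 0 to 1 for the difference of responses in footprints, 0 to 1 for auxin against vehicle mRNA with TIR, 0 to 16 for the hour in footprints and 0 to 4 in mRNA. RPN4 footprints with Hac1 retained missed the threshold after scaling (0.35, adjusted p = 0.172), without a filter (0.69, adjusted p = 0.0585), with no replicate block (0.93, adjusted p = 0.0729) and without the 2 h DTT library (0.62, adjusted p = 0.0531). Between unstressed TIR and no-TIR cells RPN4 footprints went from -0.14 to 0.095 with no replicate block. With 1 library left out that value ran from -0.47 to 0.0753 and from -0.61 to 0.0535 in mRNA, RPN4 in auxin against vehicle from -0.17 to 0.00683 (TE, TIR) and from -0.14 to 0.21 (footprints, no TIR). The causes were not tested. Comparisons with the single unstressed no-TIR library have no value without it, and 4 residual degrees of freedom limit all tests.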
